A study of Mus musculus with 55 samples.

Results

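In mouse macrophages given lipopolysaccharide (LPS), most acetylated regions kept their level at 2 h and a small group lost most of it. The regions described here are that group. They were chosen by the deposited signal of H3K27ac, the acetylation of histone H3 at lysine 27, in a catalogue of 97113 open-chromatin regions. A region was taken when, in each of 2 replicates, the PBS 2 h value was 20 or more and the LPS 2 h value was at most 1/3 of it. The rule found 1859 regions, 1.91% of the catalogue, out of 40217 regions whose PBS 2 h value reached 20 in both replicates.

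H3K27ac marks promoters and enhancers in use and is written mainly by the acetyltransferases p300 and CBP and removed by histone deacetylases. Macrophage enhancers are set up by lineage factors such as PU.1, C/EBP and AP-1 proteins. When LPS engages the receptor TLR4, NF-kB and interferon-activated factors gain acetylation at inflammatory enhancers, while a part of the enhancers active in resting macrophages is turned down. LXR and SREBP are transcription factors of cholesterol export and of sterol and fatty acid synthesis, and both bind many macrophage enhancers.

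The cells were bone marrow-derived macrophages of C57BL/6J mice, grown with L-cell conditioned medium as a source of M-CSF and starved of serum overnight. They received LPS at 10 ng/ml with 3'SL at 100 µg/ml, LPS alone, 3'SL alone or the vehicle PBS, each for 2 h or 6 h. The sugar 3'SL is 3'-sialyllactose, a sialylated oligosaccharide of human milk. For H3K27ac 2 libraries of each group were used, except PBS at 6 h, with 1 of replicate 2. For p300 2 of each group were used, except PBS at 2 h and at 6 h, with 1 each of replicate 2. The labels list replicate 1 samples of these 3 PBS groups too, but no column of the tables matched them, and they are not analysed here. Peak lists of LXR and SREBP came from separate cells given 1 µM GW3965, an LXR agonist, for 18 h. The labels give no other treatment for these factors. The p300 list was taken to be of the same treatment. The labels hold p300 libraries of other treatments too, and the list gives positions only, so its source is an assumption. Titles and treatment labels disagree for 4 H3K27ac libraries of 2 h: in replicate 1 those of LPS, 3'SL and both are given as 1 h treatments, and in replicate 2 that of both as vehicle. The titles were followed. Pairs of values below are replicate 1 and then replicate 2.

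The H3K27ac libraries held 11.4 to 16.8 M tags in replicate 1 and 4.2 to 39.6 M in replicate 2, and the p300 libraries held 13.6 to 18.1 M and 3.2 to 8.75 M. The 2 replicates stood apart: 53.9 to 64.8% of H3K27ac tags lay in the regions in replicate 1 and 72.4 to 79.3% in replicate 2, against 6.12 to 9.42% and 20.1 to 27.5% for p300. Values called normalised tags below are tags per 10000000, rescaled for this difference, in a 1000 bp window for H3K27ac and a 200 bp window for p300. The promoters of 10 macrophage marker genes had a median H3K27ac value of 394.5, and those marker promoters of other cell types that lay in the catalogue carried 1.19 to 13.2. The signal is from whole cultures, so fewer cells with the mark and less of the mark per cell cannot be told apart.

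6 of the regions named below are shown first. They were picked as examples and do not stand for the whole group. Each is given as its central 200 bases, plus strand, from the RefSeq copy of GRCm38 (mm10). Capitals mark exact matches on either strand to AGGTCA (a nuclear receptor site), CATGTG and CACGTG (E-boxes, the sites of basic helix-loop-helix factors), GAGGAAGT (the PU.1 and ETS site) and TGACTCA (the AP-1 site). The first 3 lost most acetylation at 2 h, and at 6 h those near Slco2b1 and Slc7a13 were still low while that of Atp6v0d2 had regained part.
Slco2b1 (chr7:99674914-99675113): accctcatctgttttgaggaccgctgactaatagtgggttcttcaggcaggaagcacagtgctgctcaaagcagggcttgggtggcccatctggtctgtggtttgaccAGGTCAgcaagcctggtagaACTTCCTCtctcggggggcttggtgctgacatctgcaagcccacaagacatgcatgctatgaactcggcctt
Slc7a13 (chr4:19869564-19869763): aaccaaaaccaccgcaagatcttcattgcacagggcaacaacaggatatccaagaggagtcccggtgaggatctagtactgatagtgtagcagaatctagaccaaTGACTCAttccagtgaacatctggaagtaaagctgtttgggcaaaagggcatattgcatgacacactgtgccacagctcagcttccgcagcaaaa
Atp6v0d2 (chr4:19894681-19894880): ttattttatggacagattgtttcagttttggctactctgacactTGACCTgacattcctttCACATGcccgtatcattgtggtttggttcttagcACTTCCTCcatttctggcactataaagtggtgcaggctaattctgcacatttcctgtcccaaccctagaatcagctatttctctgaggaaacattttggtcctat
The other 3 had regained it by 6 h. The matches in the Por and Fnip2 regions include CACGTG, which 11 of the 78 recovered members (defined below) and 5.27% of all members hold.
Ctsd (chr7:142398216-142398415): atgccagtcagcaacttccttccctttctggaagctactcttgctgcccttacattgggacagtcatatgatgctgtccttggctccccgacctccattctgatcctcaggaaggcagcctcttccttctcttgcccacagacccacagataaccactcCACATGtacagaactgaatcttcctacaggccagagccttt
Fnip2 (chr3:79529825-79530024): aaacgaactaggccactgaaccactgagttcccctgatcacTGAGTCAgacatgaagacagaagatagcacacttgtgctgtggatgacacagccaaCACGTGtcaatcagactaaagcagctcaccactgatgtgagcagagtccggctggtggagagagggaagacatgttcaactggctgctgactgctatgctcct
Por (chr5:135710943-135711142): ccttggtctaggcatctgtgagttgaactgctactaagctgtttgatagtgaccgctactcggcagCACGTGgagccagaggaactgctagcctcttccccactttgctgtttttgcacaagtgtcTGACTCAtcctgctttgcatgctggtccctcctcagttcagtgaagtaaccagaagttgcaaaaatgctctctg

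The values that chose the members are given as a description. The median deposited value of the 1859 regions was 24.3 and 30.9 with LPS at 2 h, against 103 and 163 with PBS at 2 h. Over the 40217 regions with PBS values of 20 or more the medians were 81.9 and 102 with LPS, against 86.7 and 126 with PBS, so regions with PBS values of 20 or more did not share the fall as a set. The median ratio of LPS to PBS in a member was 0.252 in replicate 1 and 0.205 in replicate 2. At the edge of the rule, judged by the larger of the 2 replicate ratios, lay the promoter of Lrp1 and regions near Snord17 (each 0.3333), Epb41l2 and Trio (each 0.3332). Just outside lay regions near Fmo9 (0.3334), Eif4e3 (0.3335), Tmem135 and Commd8 (each 0.3336). In the fit over all regions 920 members were lower at an adjusted p under 0.05 in this contrast, 49.5% of them, and none was higher, where 2.07% of all regions were lower and 3.08% higher, but the rule used the same libraries and nothing is read from that count.

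**Figure D1:**
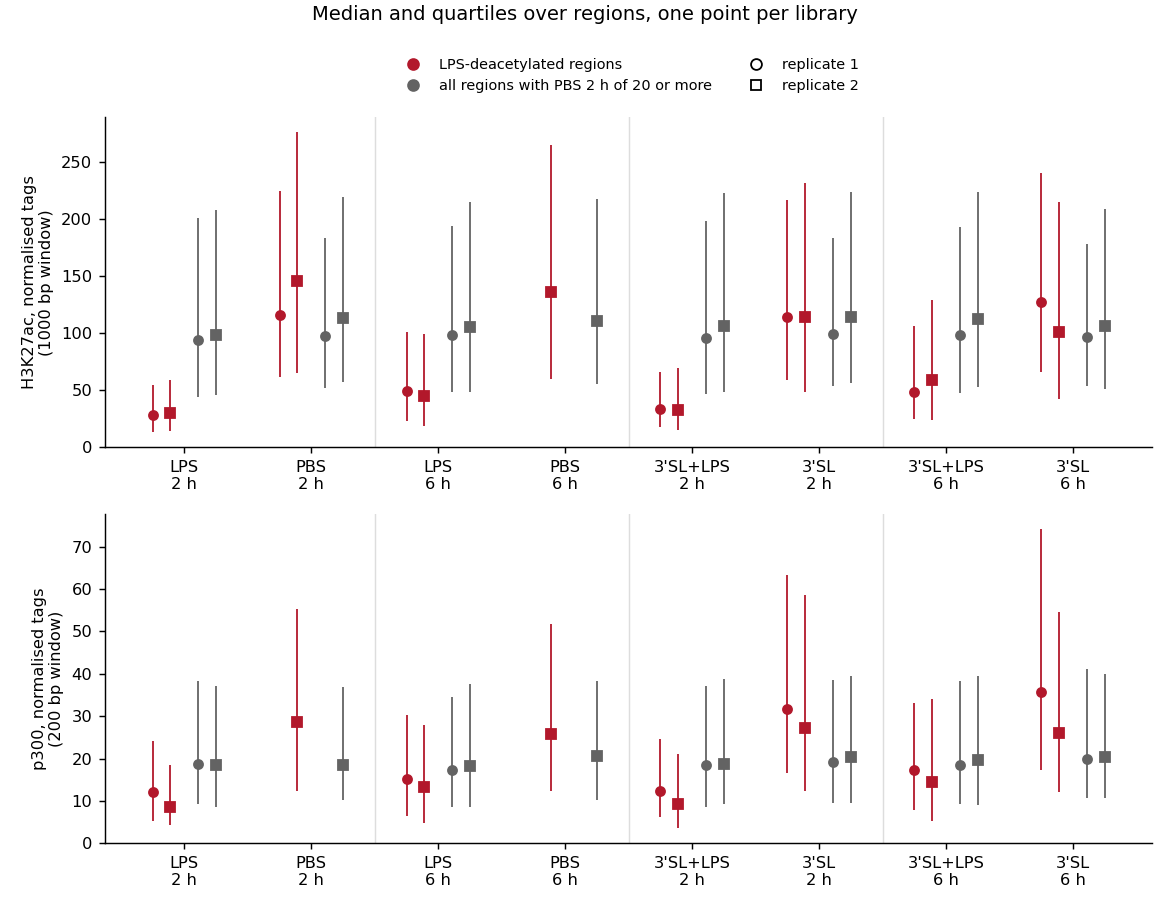
Normalised tags (linear axis) of H3K27ac (top) and p300 (bottom) in each library. Red symbols are medians over the 1859 regions with lines over the quartiles, grey ones the same over all regions with PBS 2 h values of 20 or more, circles replicate 1 and squares replicate 2. The red H3K27ac medians were 27.9 and 30.0 with LPS at 2 h, against 116 and 146 with PBS at 2 h.

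The regions were mostly distal elements. Introns held 921 of them (49.5%), stretches between genes 749 (40.3%) and promoters 105 (5.65%). Among regions with PBS values of 20 or more, 39% lay in introns, 25.8% between genes and 29.6% at promoters. The median distance to the nearest gene start was 22366 bp in the members, 4651 bp in the regions with PBS values of 20 or more and 15228 bp in the whole catalogue. Of the members, 71.2% lay over 10 kb from a start, against 40.8% of the regions with PBS values of 20 or more.

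Many members lay close to each other. Their windows merged into 1520 separate stretches, so neighbouring members share tags and are not independent. Joined where starts lay within 10000 bp, they formed 1162 runs, 745 of a single member. The 34 runs of 5 or more held 203 members among 220 regions with PBS values of 20 or more, and since a run begins and ends at a member, these counts are a description. In the longest, 13 of 14 such regions over 44.1 kb near Gm15569, Cerk (a ceramide kinase) and Tbc1d22a were members. Near Slc37a2, a sugar phosphate carrier, and Tmem218 all 11 over 26.9 kb were. All 8 over 30.1 kb at Arhgap25 and all 7 over 16.5 kb at Arhgap22, both genes of GTPase-activating proteins, were members too. At Ctsd, which encodes the lysosomal protease cathepsin D, 10 of 13 over 17.8 kb were. The members had 951 nearest genes, 539 of them with 1 member and 114 with 4 or more.

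Most members overlapped a peak of the p300 list. The count was 1501 of 1859, or 80.7% (exact 95% interval 78.9 to 82.5), against 39.4% of all regions. LXR peaks overlapped 1168 members (62.8%, 60.6 to 65), against 27.7% of all regions, and SREBP peaks 1055 (56.8%, 54.5 to 59.0), against 27%. Active distal regions in general had many of these peaks as well. Among regions over 1 kb from a start, p300 peaks overlapped 84.0% of members and 78.6% of those with PBS values of 20 or more, LXR peaks 64.5% and 59.6%, and SREBP peaks 58.8% and 55.7%. None of the 3 lists touched 13.7% of members and 50.8% of all regions. These intervals cover counting error only, and each factor has 1 list, so replicates of peaks could not be compared.

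The p300 differences of members with and without an LXR or SREBP peak overlapped between their quartiles. The median log2 difference of p300, LPS over PBS at 2 h, was -1.5 with an LXR peak and -1.27 without, and -1.58 with a SREBP peak and -1.17 without. For LXR the quartiles were -2.3 and -0.782 with a peak and -2.1 and -0.275 without, and for SREBP -2.4 and -0.864 with a peak and -1.94 and -0.293 without. These contrasts were not tested. The share with an LXR peak was much the same whether a region regained acetylation (60.3%), regained part of it (62.7%) or stayed low (63.8%) at 6 h, by classes defined below.

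Motif shares were set against regions with PBS values of 20 or more and against all regions. Each set held only regions over 1 kb from a start. The NF-kB motif is GGG and TTTCC with 2 bases of any kind between them, on either strand. It was found in the central 200 bases of 0.35% of these members, against 1.67% of the active regions and 1.86% of all. The IRF and STAT motif, GAAA and GAAA with 2 bases between, was found in 1.46%, against 4.13% and 3.57%. The AP-1 motif TGACTCA was found in 22.6%, against 19.9% and 16.6%. The E-box CATGTG, bound by MITF and TFE family factors among others, was in 23.4%, against 16.6% and 16.2%. CACGTG was in 5.08%, against 3.61% and 3.0%. With regions near starts included CACGTG was in 5.27% of members, against 4.76% of regions with PBS values of 20 or more. Over 1 kb from a start AGGTCA was in 16.9%, against 14.2% and 13.2%, and GAGGAAGT in 12.8%, against 12.0% and 11.3%. None of these differences was tested. The median GC content over 1 kb from a start was 49.0% in members, 48.5% in regions with PBS values of 20 or more and 48.0% in all regions. A match describes letters and not a bound site.

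**Figure D2:**
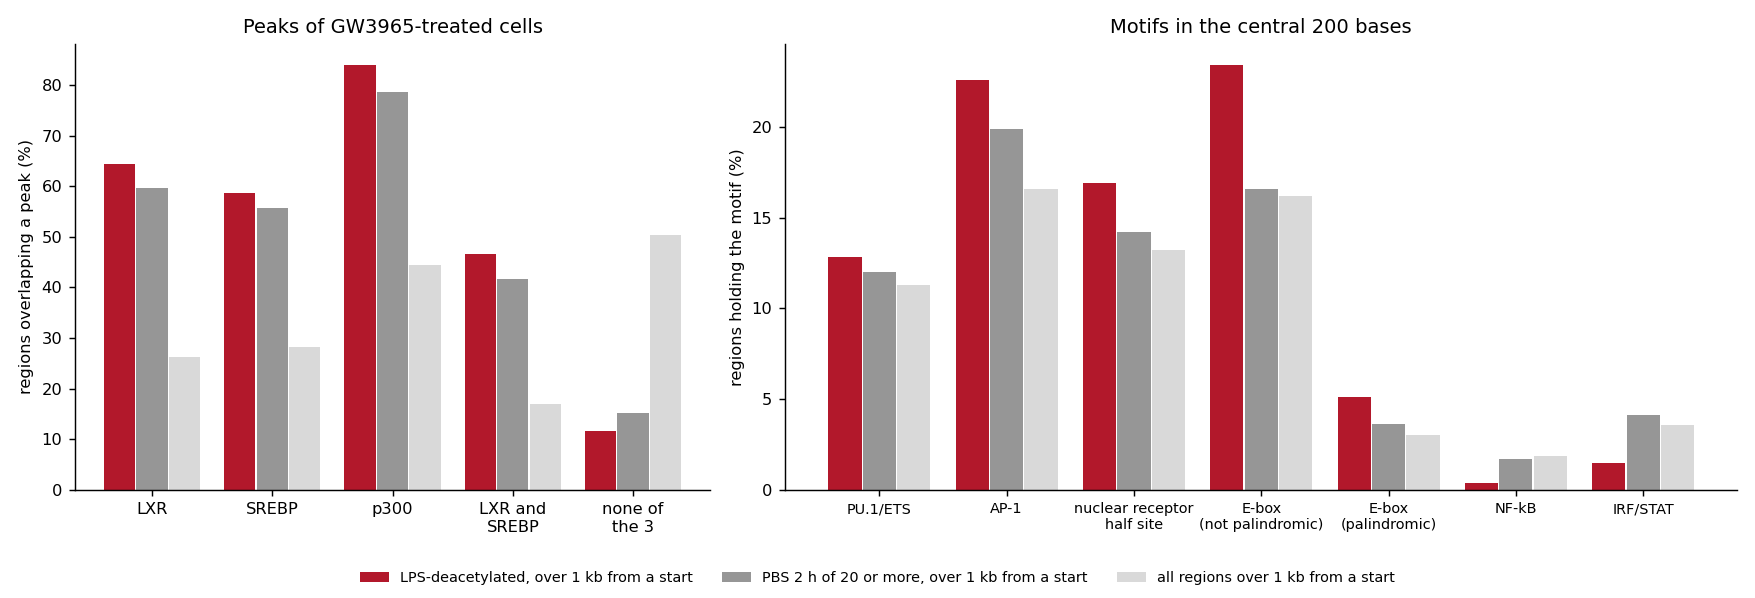
Share of regions (percent, axis from 0) that overlap a peak of the LXR, SREBP or p300 list (left) or hold a motif in their central 200 bases (right). The lists were taken to be of GW3965-treated cells, which for p300 is an assumption. Members over 1 kb from a gene start stand beside regions with PBS 2 h values of 20 or more and all regions, also over 1 kb from a start. Peak shares of members were close to those of other active distal regions, at 64.5% against 59.6% for LXR, while NF-kB motifs stood at 0.35% against 1.67%.

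Whether LPS lowers acetylation at these regions in libraries the rule did not use was asked of the cells that also received 3'SL. At 2 h the median over members was 33.7 and 33.0 normalised tags with 3'SL and LPS, against 114 and 114 with 3'SL alone. The median log2 difference was -1.63 in members and 0.0212 in all regions, and 1858 of 1859 members were lower. By limma, with Benjamini-Hochberg adjustment over 77387 regions, 442 members (23.8%) fell and none rose, where 0.817% of all regions fell and 1.64% rose. In all, 1340 members were lower at an unadjusted p under 0.05. With the replicate number as a block 1573 fell, and with the authors' own scaling 241. Leaving out 1 library left 9 (3'SL and LPS replicate 2), 46 (3'SL and LPS replicate 1), 21 (3'SL replicate 2) or 32 (3'SL replicate 1).

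The same thresholds applied to the deposited values of these libraries (3'SL and LPS at 2 h against 3'SL at 2 h) would choose 1231 regions. Of the 1231 regions 806 are members, which is 43.4% of the members and 65.5% of the 1231. At 6 h the same thresholds would choose 739 regions (0.761% of the catalogue), of which 300 are members (16.1% of the members, 40.6% of the 739).

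p300 fell with acetylation. At 2 h the median over the members tested was 12.1 and 8.56 normalised tags with LPS, against 28.7 in the single PBS library. Of the 1859 members, 1737 passed the filter on low p300 counts. Their median log2 difference was -1.42, against 0.109 over all 62225 regions tested, and 1503 were lower. By limma 69 (3.97%) fell and none rose, where 0.154% of all regions fell and 2.15% rose. In the whole catalogue 96 regions fell, so 69 of those 96 were members. In cells with 3'SL, p300 medians were 12.4 and 9.4 with LPS, against 31.6 and 27.3 without, the median log2 difference was -1.38 (all regions -0.0111), and 46 members (2.65%) fell and none rose, where 0.109% of all regions fell and 1.08% rose.

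These p300 counts depend on the scaling. On the authors' scaling to a fixed number of tags, which moved the median of all regions to -0.679 at 2 h, no member passed in either comparison, while the block gave 335 in cells with LPS alone and 395 in cells with 3'SL. Without LPS replicate 2 the 69 became 14, and without replicate 1 they became 29. In cells with 3'SL the 46 became 6 and 24 without replicate 2 or 1 of 3'SL and LPS, and 2 and 27 without replicate 2 or 1 of 3'SL alone.

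**Figure D3:**
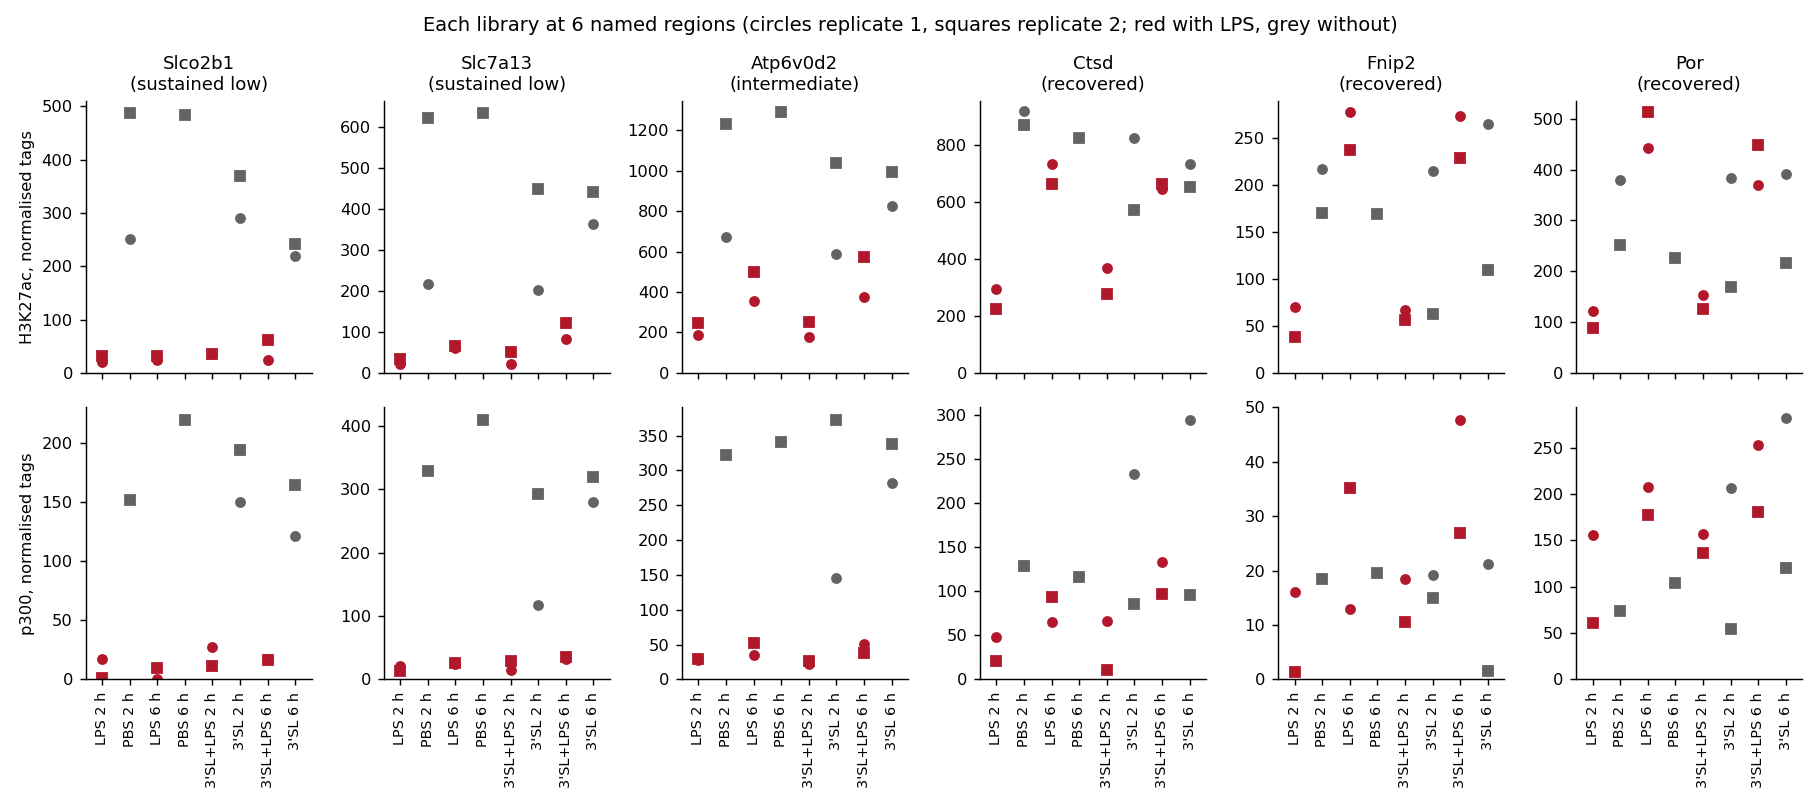
Normalised tags (linear axis) of H3K27ac (top) and p300 (bottom) in every library at the 6 regions whose sequences are shown. Red points are libraries with LPS and grey points libraries without. In the Slco2b1 region the red H3K27ac points run from 19.7 to 61.7 and the grey ones from 220 to 487, while at Por they overlap because the 6 h LPS values of 443 and 514 exceed the PBS ones.

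The Slco2b1 region, in intron 7 of 13 of an organic anion transporter gene (chr7:99674514-99675514), had H3K27ac values of 19.7 and 32.2 with LPS at 2 h, against 251 and 487 with PBS. At 6 h they were 24.4 and 31.6 with LPS, against 484 with PBS. With 3'SL they were 36.2 and 36 with LPS at 2 h, against 291 and 370 without, and 24.7 and 61.7 with LPS at 6 h, against 220 and 242 without. Every library with LPS lay under every library without it. The log2 difference with 3'SL was -3.15 ± 0.47 at 2 h (SE, limma adjusted p = 0.00911) and -2.53 ± 0.47 at 6 h (adjusted p = 0.0413). p300 there was 17.5 and 1.43 with LPS at 2 h, against 152 with PBS, and 0 and 9.72 with LPS at 6 h, against 219 with PBS. The p300 difference was -4.51 ± 1.17 at 2 h (adjusted p = 0.0545, or 0.00212 with the replicate block) and -6.07 ± 1.17 at 6 h (adjusted p = 0.0324). It carries peaks of LXR, SREBP and p300.

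The regions nearest Slc7a13, an amino acid transporter gene, lie between that gene and the end of Atp6v0d2. At chr4:19869164-19870164, which overlaps LXR, SREBP and p300 peaks, p300 was 21.5 and 12.8 with LPS at 2 h, against 328 with PBS, and 23.8 and 25.5 with LPS at 6 h, against 409 with PBS. With 3'SL p300 was 14.8 and 29.4 with LPS at 2 h, against 118 and 292 without. The groups did not overlap. The log2 differences were -4.22 ± 0.66 at 2 h (limma adjusted p = 0.0027), -4.0 ± 0.66 at 6 h (adjusted p = 0.0131) and -3.09 ± 0.54 with 3'SL at 2 h (adjusted p = 0.00808). H3K27ac was 21.8 and 35.1 with LPS at 2 h, against 218 and 621 with PBS, and with 3'SL it was 22.9 and 50.4 with LPS, against 203 and 448 without (-3.11 ± 0.56, adjusted p = 0.0186). At 6 h it was 61.7 and 64.5 with LPS, against 633 with PBS (replicate 2 only), and the LPS libraries still lay far under PBS.

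At Zfyve28, which encodes an endosomal protein with a FYVE domain, a region in intron 2 of 12 (chr5:34238168-34239168) showed the same pattern. Its H3K27ac was 23.1 and 38.8 with LPS at 2 h, against 205 and 745 with PBS, and its p300 was 9.4 and 8.56, against 186 (-4.23 ± 0.77, limma adjusted p = 0.00781). A region nearest Tbc1d9, a gene of the TBC family of Rab GTPase regulators, lies in intron 6 of 6 of Rnf150. There p300 was 25.5 and 14.3 with LPS at 2 h, against 254 with PBS (-3.66 ± 0.6, adjusted p = 0.00371), and H3K27ac with 3'SL differed by -2.75 ± 0.32 (adjusted p = 0.0037).

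By 6 h the regions had parted ways. Acetylation with LPS at 6 h was at least 2/3 of the PBS 2 h value in both replicates in 78 members (4.2%), called recovered, at most 1/3 in both in 442 (23.8%), called sustained low, and in between or different between replicates in 1339 (72.0%). The median ratio of LPS at 6 h to PBS at 2 h was 0.429 and 0.306 over all members, 0.842 and 0.856 over recovered ones and 0.25 and 0.173 over sustained low ones. These classes use the H3K27ac values of LPS at 6 h, so values of those libraries by class are a description. Against the PBS 6 h library, not used by the rule, the members' median ratio was 0.342.

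As a group the members were still low at 6 h. Medians were 48.8 and 44.8 normalised tags with LPS, against 136 in the single PBS library, and the median log2 difference was -1.41 (all regions -0.0123), with 1755 of 1859 lower. By limma 75 members (4.03%) fell and none rose, where 0.132% of all regions fell and 0.544% rose. With 3'SL the medians of the deposited values were 39.6 and 58.8 with LPS, against 112 and 119 without, the median log2 difference was -0.996 (all regions 0.0923), and 40 members (2.15%) fell and none rose, where 0.0762% of all regions fell and 0.567% rose. The block raised these counts to 941 (1 of them higher) and 757, and the authors' scaling lowered them to 25 and 7. Leaving out LPS replicate 2 or 1 left 0 or 3 of the 75, and leaving out replicate 2 or 1 left 2 or 0 of the 40 for 3'SL and LPS and 0 or 3 for 3'SL alone.

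The classes, drawn from cells with LPS alone, were seen again in libraries they did not use. With 3'SL at 6 h the median log2 difference, with LPS over without, was -0.0136 in recovered members, -0.853 in intermediate ones and -1.6 in sustained low ones. At 2 h it was -1.26, -1.58 and -1.94 in the same order, so recovered members had fallen too. p300 followed: LPS over PBS at 6 h gave 0.0966, -0.836 and -1.43, and at 2 h -0.879, -1.33 and -1.85. With 3'SL, p300 gave -0.203, -0.829 and -1.3 at 6 h and -1.07, -1.31 and -1.73 at 2 h.

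**Figure D4:**
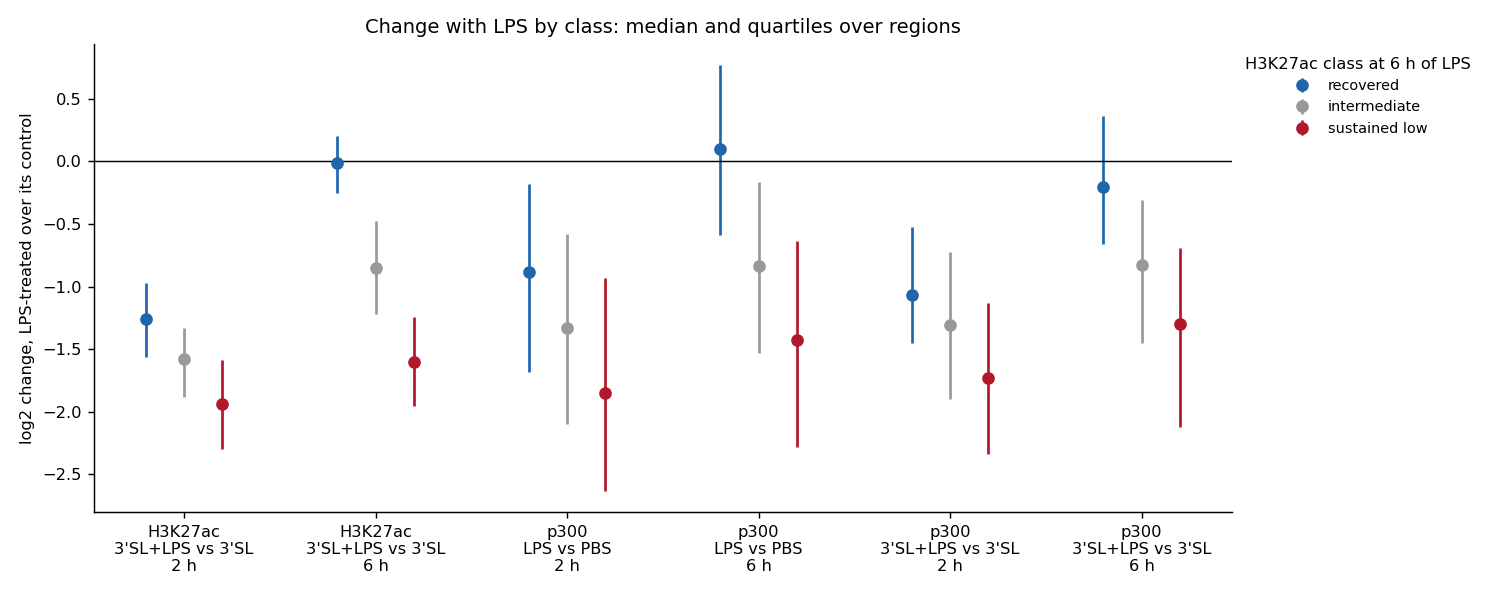
Log2 difference, with LPS over without, for recovered, intermediate and sustained low members: H3K27ac with 3'SL at 2 h and 6 h, and p300 at both times with and without 3'SL. Points are medians over members and lines span the quartiles, and 0 means no difference. At 6 h the recovered medians lie near 0 (-0.0136 for H3K27ac and 0.0966 for p300 without 3'SL) and the sustained low ones at -1.6 and -1.43.

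The rise between the 2 times was broad and shallow, and few single regions could be told from replicate spread. In cells with 3'SL and LPS, H3K27ac at 6 h over 2 h had a median log2 difference of 0.685 in members (all regions 0.0215), with 1603 of 1859 higher. By limma none of the 77387 regions passed, while 414 members were higher and 3 lower at an unadjusted p under 0.05, edgeR called 0, DESeq2 called 96 and the block 279, all higher. p300 at 6 h over 2 h with LPS had a median of 0.394 (all regions -0.055), with 1158 of 1737 higher. No region passed by limma, edgeR or DESeq2, 133 members were higher and 22 lower at an unadjusted p under 0.05, and the block gave 10, of which 8 were higher. The difference between the LPS effects at 6 h and at 2 h had a median of 0.704 for H3K27ac with 3'SL and 0.498 for p300 without it. No member passed that test by limma, with 209 higher and 0 lower for H3K27ac and 41 higher and 19 lower for p300 at an unadjusted p under 0.05. The test was run in the unpaired fit only, so it was not tried with the block.

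**Figure D5:**
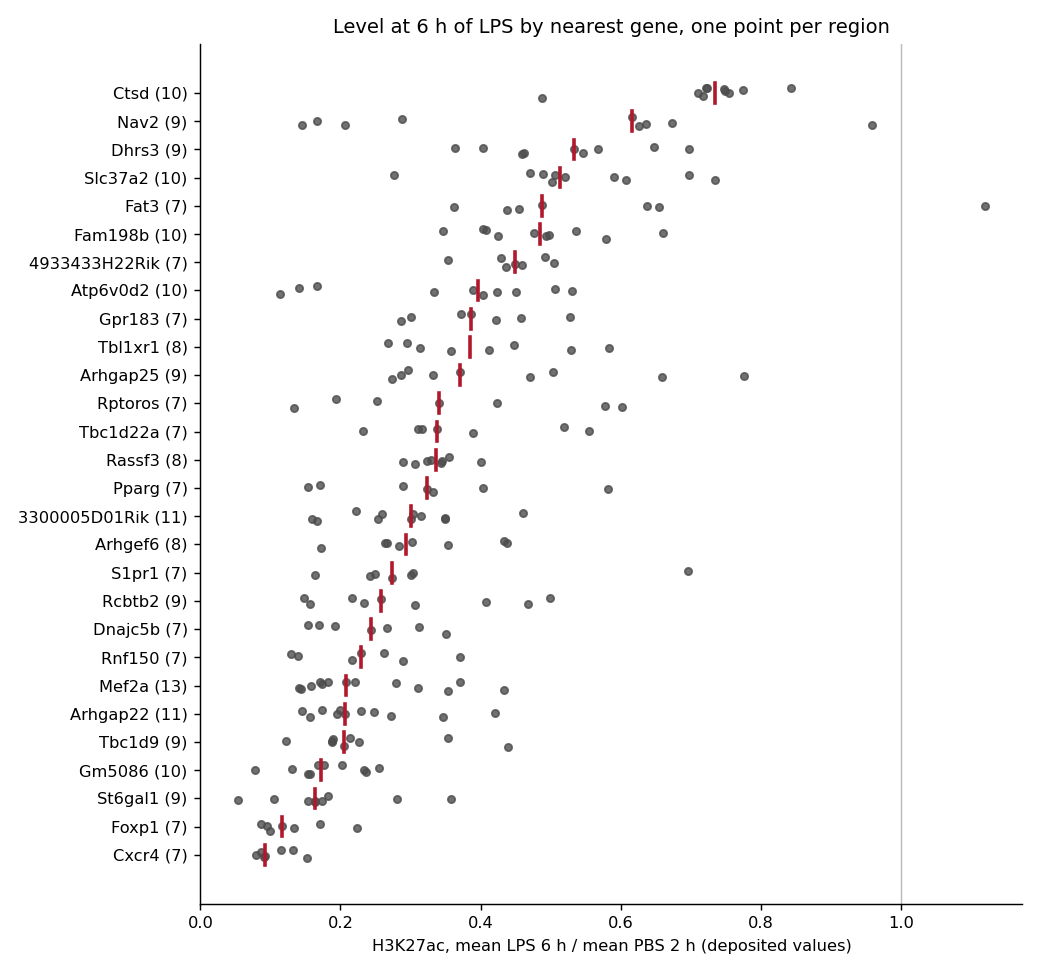
Ratio of mean H3K27ac with LPS at 6 h to mean H3K27ac with PBS at 2 h (deposited values) for each member of the 28 genes with 7 or more members. Each point is a region and red bars are medians. Ctsd lies at the top with a median of 0.735 and Cxcr4 at the bottom with 0.0922.

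Recovery varied between genes. Among genes with 4 or more members the highest median ratios at 6 h were at Lrp1 (0.883), Ninj2 (0.842), Ctsd (0.735), Maf (0.677), Cd93 (0.653) and Tfeb (0.647), and none of the members of these 6 genes was sustained low. Low medians were found at Rasgrp3 (0.0673), Cxcr4 (0.0922), Foxp1 (0.117) and Lyzl4 (0.148). All 7 Cxcr4 members, all 4 at Rasgrp3 and 6 of 7 at Foxp1 were sustained low. Members of 1 gene lie close together and often share windows, so these are not separate observations.

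On a list of 22 lysosome and phagosome genes, members lay nearest to 6 and made up 29 of the 238 regions (12.2%). In the whole catalogue 1.91% were members. Only regions with PBS values of 20 or more could be members, here 165 of the 238. In the whole catalogue 40217 of 97113 could be, of which 1859 were. The 6 genes were Atp6v0d2 and Ctsd with 10 members each, Tfeb with 6, and Gpnmb, Lgmn and Psap with 1 each. In that order they encode a subunit of the proton pump that acidifies lysosomes, cathepsin D, a master regulator of lysosomal genes, a lysosomal glycoprotein, legumain and prosaposin. Of the 29, 8 were recovered and 1 was sustained low, and 6 of the 8 were Ctsd windows of 1 run, while none of the members at Atp6v0d2 or Tfeb was recovered. With 3'SL their median log2 difference, with LPS over without, was -1.42 at 2 h, where 9 of 29 fell, and -0.27 at 6 h, and all 29 were higher with 3'SL and LPS at 6 h than at 2 h (median 1.16). p300 differed by -1.4 at 2 h, where 4 of 29 fell, and by -0.23 at 6 h, where 2 fell. With the replicate block 28 fell with 3'SL at 2 h and 8 at 6 h, and p300 fell in 12 and 7. Without the block 23.8% of all members fell with 3'SL at 2 h, and p300 fell in 3.97% and 0.748%. Over all regions these shares were 0.817%, 0.154% and 0.0225%. The block also raised the counts over all members, as given above.

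The intergenic Ctsd region at chr7:142397816-142398816, upstream of the gene and with peaks of all 3 factors, had H3K27ac values of 294 and 226 with LPS at 2 h, against 921 and 870 with PBS. At 6 h they were 734 and 664 with LPS, against 825 with PBS. With 3'SL they were 370 and 276 with LPS at 2 h, against 826 and 571 without, and 645 and 662 at 6 h, against 734 and 652. The groups were separate at 2 h and overlapped at 6 h with 3'SL. The log2 difference with 3'SL was -1.1 ± 0.25 at 2 h (limma adjusted p = 0.0439) and -0.08 ± 0.25 at 6 h (adjusted p = 0.966). p300 was 48.3 and 21.4 with LPS at 2 h, against 129 with PBS, and 64.9 and 93.5 at 6 h, against 116, a difference of -1.97 ± 0.93 at 2 h that missed the threshold (adjusted p = 0.34) and passed it with the replicate block (0.00551). At Tfeb all 6 members were intermediate, and one of them (chr17:47759732-47760732) had 32 and 31.4 with LPS at 2 h, against 181 and 140 with PBS, and 169 and 98.8 with LPS at 6 h, against 123 with PBS.

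The 10 members at Atp6v0d2 were 9 intermediate ones and 1 sustained low. The region in intron 2 of 7 (chr4:19894281-19895281) was among the most acetylated of all members, with H3K27ac of 186 and 246 with LPS at 2 h, against 673 and 1230 with PBS. At 6 h it had 358 and 501 with LPS, against 1290 with PBS, a partial return. With 3'SL it had 179 and 251 with LPS at 2 h, against 590 and 1040 without (-1.89 ± 0.38, limma adjusted p = 0.0284), and 375 and 575 at 6 h, against 827 and 993 (-0.96 ± 0.38, adjusted p = 0.36, or 0.00364 with the replicate block). Its p300 was 28.2 and 30 with LPS at 2 h, against 322 with PBS, and 34.6 and 52.2 at 6 h, against 341. These p300 differences were -3.42 ± 0.62 (adjusted p = 0.00775) and -2.97 ± 0.62 (adjusted p = 0.0469), and with 3'SL at 2 h, 22.3 and 27 with LPS against 146 and 373 without, -3.2 ± 0.51 (adjusted p = 0.00468). The member at the Atp6v0d2 promoter differed between replicates, with 132 and 8.77 with LPS at 2 h, against 389 and 64 with PBS, and its difference with 3'SL at 2 h was -1.2 ± 1.61 (adjusted p = 0.844, or 0.0153 with the replicate block). p300 was not low at every Atp6v0d2 member: at chr4:19926709-19927709 it was 32.4 and 85 with LPS at 6 h, against 36.2 with PBS.

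Among genes of macrophage lineage and identity more members stayed low than recovered. Members made up 29 of the list's 500 regions (5.8%, against 1.91% of the whole catalogue). Of the 500 regions 300 had PBS values of 20 or more. Of the 29 members 15 were sustained low and 1 was recovered. They lay nearest to Mef2a (13), Klf4 (5), Maf (4), Cebpa (3), Tgfbr1 (3) and Runx1 (1), all transcription factor genes except the TGF-beta receptor gene Tgfbr1. The 5 Klf4 members, 3 of them sustained low, lay 272994 to 431697 bp from its start. Regions were assigned by nearest start only, and which genes the 29 members regulate was not tested. With 3'SL the median log2 difference was -1.83 at 2 h, where 11 of 29 fell, and -1.19 at 6 h, where 1 fell. Over all members 23.8% fell at 2 h and 2.15% at 6 h, where 0.817% and 0.0762% of all regions did. The p300 medians over the 27 members tested were -2.07 at 2 h, where 2 fell, and -1.59 at 6 h, where 1 fell. Over all members tested p300 fell in 3.97% and 0.748%, and over all regions in 0.154% and 0.0225%. With the replicate block 27 fell with 3'SL at 2 h and 17 at 6 h, and p300 fell in 7 and 2.

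The 13 Mef2a members, 9 of them sustained low, lay 7485 to 90938 bp from the gene start. At the farthest (chr7:67463296-67464296) H3K27ac was 31.3 and 37.3 with LPS at 2 h, against 163 and 324 with PBS, and 34.4 and 39.5 with LPS at 6 h, against 315 with PBS. With 3'SL it was 50.2 and 56.7 with LPS at 2 h, against 227 and 217 without (-2.04 ± 0.36, limma adjusted p = 0.0185). No LPS library reached the lowest library without LPS. Another Mef2a region (chr7:67445092-67446092) had p300 of 5.37 and 7.13 with LPS at 2 h, against 77.8 with PBS (-3.45 ± 0.81, adjusted p = 0.0341).

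Maf, which encodes the basic leucine zipper factor c-Maf, held the recovered member of the list. This region (chr8:115581800-115582800, 124594 bp from the start) had H3K27ac of 29.2 and 38 with LPS at 2 h, against 143 and 223 with PBS, and 148 and 169 with LPS at 6 h, against 166 with PBS. With 3'SL it had 40.1 and 35.6 with LPS at 2 h, against 139 and 192 without (-2.08 ± 0.32, limma adjusted p = 0.011). At 6 h with 3'SL it had 113 and 118 with LPS, against 139 and 146 without (-0.3 ± 0.32, adjusted p = 0.85). The groups were apart at 2 h by more than the replicate spread and close at 6 h. A second Maf region (chr8:115611760-115612760) had p300 of 48.3 and 27.1 with LPS at 2 h, against 211 with PBS (-2.51 ± 0.62, adjusted p = 0.0424). Near Cebpa, which encodes C/EBP-alpha, one region had p300 of 0 and 4.86 with LPS at 6 h, against 64.1 with PBS (-4.75 ± 0.95, adjusted p = 0.0392).

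Receptors for chemokines and lipids also held regions that stayed low. On the list of G protein coupled receptors, members were 21 of 203 regions (10.3%), 14 of them sustained low and 1 recovered. They lay at Cxcr4 and S1pr1 (7 each), Gpr34 (3), Lpar6 (2), C5ar2 and Gpr65. In the whole catalogue 1.91% were members. Of the 203 regions 145 had PBS values of 20 or more. With 3'SL the median log2 difference of the 21 members was -1.8 at 2 h, where 6 fell, and -1.72 at 6 h, where 1 fell. With the replicate block 19 and 17 fell. Over all members 23.8% fell at 2 h and 2.15% at 6 h without the block, where 0.817% and 0.0762% of all regions did. The Cxcr4 promoter, of the receptor for the chemokine CXCL12, had H3K27ac of 34.7 and 22.7 with LPS at 2 h, against 187 and 184 with PBS, and 22.2 and 9.22 with LPS at 6 h, against 130 with PBS. An intergenic Cxcr4 region (chr1:128747002-128748002) had 18.4 and 14 with 3'SL and LPS at 2 h, against 98 and 109 with 3'SL, and 19.3 and 21.9 at 6 h, against 158 and 97.4. It fell at both times, with log2 differences of -2.61 ± 0.47 (limma adjusted p = 0.0188) and -2.54 ± 0.47 (adjusted p = 0.0421). At S1pr1, a receptor for sphingosine 1-phosphate, one region had 87.7 and 97.2 with LPS at 2 h, against 283 and 401 with PBS, and 89.6 and 90.9 at 6 h, against 370. With 3'SL at 2 h it fell by 1.59 ± 0.3 on the log2 scale (adjusted p = 0.0227).

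Of 55 regions nearest to genes for the uptake of dying cells 10 were members (18.2%, where 1.91% of the whole catalogue were), with 3 sustained low and none recovered, at Gas6 (5), Itgb5 (3) and Stab1 (2), which encode the ligand of the receptors Axl and Mertk, an integrin subunit and the scavenger receptor stabilin-1. Of the 55 regions 36 had PBS values of 20 or more. The median log2 difference of the 10 members with 3'SL was -1.81 at 2 h, where 5 fell. At 6 h it was -0.65, and none fell. With the replicate block 9 and 1 fell. Over all members 23.8% fell at 2 h and 2.15% at 6 h without the block, where 0.817% and 0.0762% of all regions did. A region nearest Stab1, which lies in Nisch, had H3K27ac of 29.9 and 42.4 with LPS at 2 h, against 320 and 589 with PBS, and 231 and 273 at 6 h, against 596. Together with 3'SL it had 47.7 and 30.5 with LPS at 2 h, against 337 and 362 without, the lowest adjusted p among the regions of these lists (-3.16 ± 0.34, limma adjusted p = 0.00309). A Gas6 region had 49 and 59.2 with LPS at 2 h, against 307 and 366 with PBS, and its 3'SL difference was -2.04 ± 0.37 (adjusted p = 0.0185). At Itgb5 p300 was 25.5 and 21.4 with LPS at 2 h, against 178 with PBS (-2.88 ± 0.73, adjusted p = 0.0491).

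Nuclear receptor genes had 9 members of 130 regions (6.92%), 7 at Pparg, which encodes the fatty acid sensor PPAR-gamma, and 2 at Rxra, which encodes the shared partner RXR-alpha. In the whole catalogue 1.91% were members, and 66 of the 130 regions had PBS values of 20 or more. None of the 9 was recovered and 3 were sustained low. With 3'SL the median log2 difference was -1.46 at 2 h and -0.96 at 6 h. At 2 h 1 of 9 fell, at Rxra (-1.83 ± 0.34, limma adjusted p = 0.0221), where 23.8% of all members and 0.817% of all regions did. At Pparg, 1 of the members in intron 6 of 7 had 18.4 and 19.7 with LPS at 2 h, against 175 and 197 with PBS, and 41.6 and 26.3 at 6 h, against 163, but none of the 7 passed with 3'SL at 2 h, the lowest adjusted p being 0.0591. With the replicate block 6 of the 7 Pparg members fell in that comparison.

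Of 168 regions nearest to LXR target and cholesterol genes 5 were members (2.98%, where 1.91% of the whole catalogue were), 2 at Apoe and 1 each at Ncoa7, Npc2 and Soat1, and none at Abca1 or Abcg1, the cholesterol exporters. Of the 168 regions 125 had PBS values of 20 or more, against 40217 of 97113 in the catalogue. A larger part of this list could thus be members, so the 2.98% is not read as an excess. None of the 5 passed with 3'SL at 2 h, with a median of -1.68, where 23.8% of all members fell. With the replicate block 4 of the 5 passed. The Apoe promoter had 17.7 and 17.5 with LPS at 2 h, against 106 and 196 with PBS, and 48.1 and 26.3 at 6 h, against 171. With 3'SL at 2 h it had 31.8 and 26.3 with LPS, against 122 and 119 without, a clear gap between groups that missed the threshold (-2.02 ± 0.57, limma adjusted p = 0.0974, or 0.00666 with the replicate block). The region of Soat1, whose product esterifies cholesterol, was recovered, with 186 and 126 with LPS at 2 h, against 558 and 458 with PBS, and 617 and 422 at 6 h, against 530.

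For inflammatory genes the counts were too small to read against the 1.91% of the whole catalogue. Of 176 regions nearest to TLR and IL-1 signalling genes none was a member. Of 255 nearest to NF-kB target genes 3 were (1.18%), all in introns of Nfkb1, which encodes the p50 subunit, and none of the 3 passed the H3K27ac tests of LPS with 3'SL at 2 h and 6 h and against PBS at 6 h. With the replicate block all 3 fell in each of them. Repressor and cell cycle inhibitor genes gave 5 of 215 (2.33%), 3 at Tsc22d3, the glucocorticoid-induced leucine zipper, and 1 each at Bach2 and Trib2, with 4 sustained low. On these lists, in that order, 94, 110 and 104 regions had PBS values of 20 or more. Over all members 23.8% fell with 3'SL at 2 h. Of the 5 repressor and inhibitor gene members 2 fell, both at Tsc22d3, or 5 with the replicate block. One of these differed by -2.12 ± 0.35 (limma adjusted p = 0.0138).

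Arhgap22, named above, held regions that lost p300 at both times. Of its 11 members 8 were sustained low. At chr14:33240088-33241088, in intron 2 of 10, H3K27ac was 134 and 136 with LPS at 2 h, against 504 and 643 with PBS, and 104 and 86.9 at 6 h, against 568. With 3'SL it fell at 2 h (-1.91 ± 0.25, limma adjusted p = 0.00612) and at 6 h (-1.82 ± 0.25, adjusted p = 0.0143). p300 was 111 and 94.1 with LPS at 2 h, against 518 with PBS (-2.33 ± 0.54, adjusted p = 0.0311), and 38.9 and 35.2 at 6 h, against 276 (-2.86 ± 0.54, adjusted p = 0.0287). The LPS replicates lay close together, and their levels at 6 h were below those at 2 h for both marks.

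At 6 h p300 fell in 13 members by limma (0.748%, where 0.0225% of all regions fell) and rose in 1, a region in intron 1 of 19 of the sortilin gene Sort1 (0.4% of all regions rose). The Sort1 value was 21.6 and 20.7 with LPS at 6 h, against 0 in the PBS 6 h library and 20.5 in the PBS 2 h library, so it rests on 1 library. With 3'SL 5 members fell and none rose at 6 h (0.288%, where 0.0193% of all regions fell and 0.215% rose). The median log2 differences were -0.916 and -0.917 (all regions -0.0518 and -0.0384), with 1394 and 1497 of 1737 lower. edgeR and the authors' scaling left 0 of the 14 calls and 1 and 0 of the 5, DESeq2 gave 35 and 34 and the block 102 and 146. Without LPS replicate 2 or 1 there were 1 and 0 calls, and leaving out any of the 4 libraries with 3'SL at 6 h left none of the 5.

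Recovery was near complete at a few genes. All 5 Lrp1 members were recovered. Lrp1 encodes an endocytic receptor for lipoproteins and dying cells, and its region in intron 15 of 88 (chr10:127587419-127588419) had H3K27ac of 51.7 and 40.2 with LPS at 2 h, against 159 and 257 with PBS. At 6 h it had 301 and 319 with LPS, against 233 with PBS. In cells with 3'SL it had 61 and 74.9 with LPS at 2 h, against 199 and 165 without (-1.41 ± 0.3, limma adjusted p = 0.0367), and 265 and 301 at 6 h, against 189 and 187 (0.59 ± 0.3, adjusted p = 0.534). The LPS groups were below the others at 2 h and above them at 6 h, and the difference at 6 h did not pass the test.

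The 3 members in intron 1 of 15 of Por, which encodes the electron donor of cytochrome P450 enzymes, had ratios of LPS at 6 h to PBS at 2 h of 1.36, 1.41 and 1.5. At chr5:135710543-135711543 H3K27ac was 121 and 89.2 with LPS at 2 h, against 380 and 251 with PBS, and 443 and 514 at 6 h, against 226. In cells with 3'SL it was 154 and 125 with LPS at 2 h, against 384 and 169 without (-0.87 ± 0.42, limma adjusted p = 0.371), and 370 and 449 at 6 h, against 391 and 217. p300 there was 156 and 61.3 with LPS at 2 h, against 73.7 with PBS, and 208 and 177 at 6 h, against 104. The 2 h values lay on both sides of the PBS one (0.4 ± 0.76, adjusted p = 0.875). The Fnip2 region, in intron 1 of 16 of a partner of the nutrient sensor folliculin (chr3:79529425-79530425), had H3K27ac of 70 and 38.8 with LPS at 2 h, against 217 and 170 with PBS, and 278 and 237 at 6 h, against 169. It overlaps none of the 3 peak lists. With 3'SL at 2 h it had 67.4 and 55.9 with LPS, against 215 and 63.1 without, and did not pass (-0.91 ± 0.56, adjusted p = 0.528).

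Motif shares were also taken by class. CACGTG was found in 11 of the 78 recovered members (14.1%), against 4.07% of sustained low ones, and TGACTCA in 34.6%, against 19.7%. GAGGAAGT was found in 8.97%, against 13.1%. The other E-box, CATGTG, was found in 21.8%, against 20.8%, and AGGTCA in 12.8%, against 17.0%. Intermediate members held CACGTG in 5.15% and TGACTCA in 21.4%. Of the recovered members 3.85% were promoters, against 7.92% of the sustained low ones. These are shares of 78 and 442 regions that partly overlap, given without a test. The recovered members with CACGTG lay nearest to Por (2), Fnip2, Zfp462, Trio, Mtss1, Bub1b, Upk2, Pldi, 4833415N18Rik and 9130015L21Rik.

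The study asked what 3'SL changes under LPS, and at these regions the change was small. Under LPS at 6 h, H3K27ac with 3'SL over without had a median log2 difference of 0.208 (all regions 0.0372), with 1337 of 1859 higher. The replicates differed. On deposited values, which lack the rescaling, the median ratio was 0.95 in replicate 1 and 1.25 in replicate 2. It was 1 or more in 40.9% and 72.7% of members. By limma, edgeR, DESeq2 and with the block no member passed, and by limma 27 were higher and 1 lower at an unadjusted p under 0.05. By class, where the same LPS libraries drew the classes, the medians were -0.0522 in recovered, 0.17 in intermediate and 0.407 in sustained low members, a description only. For p300 the medians were 0.113 at 2 h and 0.209 at 6 h (all regions -0.00886 and 0.0199), again with no call by any of these fits, and 25 higher and 16 lower at 2 h and 62 higher and 15 lower at 6 h at an unadjusted p under 0.05. At 2 h, H3K27ac with 3'SL and LPS over LPS had a median of 0.222, in a contrast that uses the libraries of the rule and was not tested. 3'SL alone over PBS at 2 h had -0.204, with the same limit.

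The members named for that comparison, by their p at 6 h, include several of low level. At the first exon of St6gal1, which encodes a sialyltransferase, H3K27ac was 13.9 and 12.8 with 3'SL and LPS at 6 h, against 6.45 and 1.32 with LPS alone, where the PBS 6 h value was 93. A second St6gal1 region, in intron 2 of 7, had 140 and 156, against 83.2 and 46.1. At the Rasgrp3 promoter, of a Ras-activating exchange factor, values were 21.6 and 23.2, against 10 and 7.9, where PBS gave 146. In the other direction the Dhrs3 region in an intron of Vps13d (chr4:145018811-145019811) had 166 and 191 with 3'SL and LPS, against 240 and 286 with LPS alone. The replicates of these 4 regions did not overlap between the 2 groups, but each had a limma adjusted p of 1. The LPS effect at 6 h with 3'SL minus that without had a median of 0.454 for H3K27ac (all regions 0.144) and 0.00277 for p300, and at 2 h of 0.0204 for p300. No member passed these tests by limma, with 10 higher and 0 lower for H3K27ac at an unadjusted p under 0.05, and 5 and 14 for p300 at 6 h and 10 and 26 at 2 h. These tests were run in the unpaired fit only and not with the block. Their PBS libraries are of replicate 2 only, so the difference between replicates enters these values.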

How the data were processed

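The submitters' processing notes name mm10, HOMER, Bowtie2 and DESeq2; no source used here gives tool versions. The authors made the deposited signal tables with HOMER, per the file headers, as tags in 1000 bp or 200 bp around each of 97113 merged ATAC regions, scaled to 10000000 tags per library. Whole tags came back within 0.05 for 100% of values. The deposited LXR, SREBP and p300 lists give positions only. The p65 list was not used: 329 of its 41220 peaks end past mm10 chromosome ends and 8.23% overlap the regions, against 89.0% of LXR peaks. 5 per-sample columns of the tables used match no labels and were left out. The members, gene lists and tests were chosen with earlier results of these data known.

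Deposited values served the rule and the classes. For tests, regions were filtered with filterByExpr (77387 for H3K27ac, 62225 for p300), rescaled by TMM over tags in regions (edgeR 4.0.16) and tested as log2(value + 1), a scale that understates changes of low regions, with limma 3.58.1 (trended empirical Bayes, group means over 15 or 14 libraries, 7 and 6 residual degrees of freedom), two-sided, Benjamini-Hochberg threshold 0.05. In the 3 PBS groups where the replicate 1 sample had no matching column, the single PBS library was assumed to vary like other groups. These PBS libraries are of replicate 2 only, while the LPS groups average both replicates. In the unpaired fit the difference between replicates thus enters the LPS over PBS differences of these groups. Nothing says that replicates were separate animals or cultures, so p-values measure only the spread between these samples. Same-numbered replicates deviated together in all 21 group pairs of H3K27ac (r 0.445 to 0.67) and all 15 of p300 (0.193 to 0.378). The main fit left this pairing out. Its counts, SE and adjusted p are unpaired, and only the fit called replicate block takes the pairs into account. Replicates differed by more than counting noise (chi-square per degree of freedom 8.34 to 28.3). Overlaps needed 1 bp (bedtools 2.31.1). Regions were named by a rule: highest PBS values, lowest ratios at 2 h, extreme ratios at 6 h, lowest adjusted p of the p300 and 3'SL comparisons, members of the gene lists, and genes with 4 or more members. The scripts were tested on simulated data. Alternatives were the authors' scaling, a pseudocount of 5, no filter, edgeR, DESeq2 1.42.0, a replicate block and leaving out each library.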

Additional observations from a re-analysis of the deposited data

How the results depend on the processing

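Counts of members called depended on the fit, while the members' median difference kept its sign under these alternatives, except for p300 with 3'SL and LPS over LPS at 2 h (-0.152 to 0.32). H3K27ac with 3'SL at 2 h (442 calls) gave 241 with the authors' scaling, 981 by DESeq2, 1573 with the replicate block and 9 to 46 without 1 library. H3K27ac with 3'SL at 6 h (40) gave 7, 350, 757 and 0 to 3, with 12 unfiltered and 15 by edgeR. LPS against PBS at 6 h (75) gave 25, 412, 941 and 0 to 3, with 49 unfiltered and 21 by edgeR. 6 h over 2 h with 3'SL and LPS (0) gave 96 by DESeq2 and 279 with the block. p300 with LPS at 2 h (69) gave 0 with the authors' scaling, 9 by edgeR, 114 by DESeq2, 335 with the block and 14 to 29 without 1 library. At 6 h (14) it gave 0, 0, 35, 102 and 0 to 1. With 3'SL p300 at 2 h (46) gave 0 with the authors' scaling, 140 by DESeq2, 395 with the block and 2 to 27 without 1 library, and at 6 h (5) it gave 0, 34, 146 and 0, with 8 at a pseudocount of 5 and 1 by edgeR. p300 at 6 h over 2 h with LPS (0) gave 10 with the block. The cause was not tested, except that the authors' scaling moved the median of all p300 regions to -0.679 at 2 h and -0.955 at 6 h, LPS over PBS, of p300 to -0.308 for LPS at 6 h over 2 h and 0.32 for 3'SL and LPS over LPS at 6 h, and of H3K27ac to -0.143 for LPS over PBS at 6 h and -0.12 for 6 h over 2 h with 3'SL and LPS. The block changed no call of 3'SL and LPS over LPS. Where an adjusted p printed for a named member passed only with the block, that value stands beside it. Leaving out the lone PBS libraries gives no value.

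Of the 86 H3K27ac calls at named members, the authors' scaling kept 37, edgeR 70, no filter 66, a pseudocount of 5 85, and DESeq2 and the block all. Of the 48 p300 calls these settings kept 0, 18, 40 and 43, the block all, and DESeq2 the 45 it could test. None reversed. Without 1 library 26 of 308 H3K27ac values and 30 of 130 p300 values still passed. The rule found 5402 regions at a ratio of 1/2, 717 at 1/4, and 6125 or 3214 on replicate 2 or 1 alone. Other overlap definitions left 47.0 to 61.4% of members with an LXR or SREBP peak, the lowest with the ATAC peak itself, chosen after seeing the data. Overlap with p65 was not run.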
